A study of Mus musculus with 8 samples.

Results

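The chromosome 5 flanks of *Hmx1* are the stretch of 10 Mb on each side of the gene that is mutated in *dmbo* mice. All probe sets that the deposited table places on chromosome 5 with a start between 25.7 and 45.7 Mb were taken, leaving out *Hmx1* itself, which gave 235 of the 28350 probe sets of the table. Of these, 154 lay on the side of lower coordinates and 81 on the side of higher coordinates. They carried 189 distinct gene symbols, and 25 probe sets carried none. The remaining 1403 probe sets of chromosome 5 served for comparison. The retinas came from 4 *dmbo* mice, homozygous for the dumbo nonsense mutation of *Hmx1*, and from 4 WT C57BL/6J mice, all at postnatal day 15 (P15). The labels give C57BL/6J as the strain of both groups, to which the *dmbo* line was backcrossed for only a few additional generations. Another retinal mutation in the line, *Rd1*, was bred out in this way. How much donor chromosome remained around *Hmx1*, or on the rest of chromosome 5, is not stated in the sources. RNA of each whole retina was hybridized to 1 Affymetrix Mouse Gene 1.0 ST array, and the values are log2 signals after RMA (robust multi-array average), which corrects background, equalizes the arrays and combines the probes of each set. Positions are those of the authors' table, whose gene descriptions refer to build NCBIM37.

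HMX1 is a homeodomain transcription factor of the developing eye, ear and sensory ganglia, and its loss in people leads to an oculoauricular syndrome with retinal degeneration. When a mutant allele is kept through repeated backcrosses, the chromosome on both sides of it is passed on with it, so neighbouring genes can stay of the donor strain while unlinked ones become those of the recipient. The stretch around *Hmx1* holds genes that are well known in the eye and in development, among them *Prom1*, which shapes photoreceptor discs, the cilium genes *Cc2d2a*, *Ift172*, *Evc* and *Evc2*, the morphogen *Shh* and the homeobox genes *En2*, *Mnx1*, *Msx1* and *Nkx3-2*. It also holds many neuronal genes, such as *Dpp6*, an auxiliary subunit of potassium channels, *Crmp1*, a mediator of semaphorin signals to the growth cone, and the Huntington disease gene *Htt*.

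HMX1 binds the letters CAAGTG, which read CACTTG on the other strand. The search covered both forms in RefSeq promoters of build GRCm38.p6, from 250 bases before to 50 bases after each gene's start. The letters overlap the site of the related factor NKX2-5, TNAAGTG, where a T stands before them. Of the 172 flank symbols that RefSeq places on chromosome 5, 150 matched a promoter. The 250 bases before the start are shown for *Crmp1* and *Gckr*, which had the lowest p among the genes lower and higher in *dmbo* after *Rpl15*, and for *Jakmip1* and *Cd38*, the only flank genes with 2 copies of the letters. Capitals mark CAAGTG or CACTTG.
Crmp1 (chr5:37241808-37242057, plus strand): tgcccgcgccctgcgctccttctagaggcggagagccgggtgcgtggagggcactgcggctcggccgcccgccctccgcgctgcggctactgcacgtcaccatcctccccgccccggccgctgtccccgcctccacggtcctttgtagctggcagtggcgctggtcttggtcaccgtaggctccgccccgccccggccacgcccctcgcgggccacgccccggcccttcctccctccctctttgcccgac
Gckr (chr5:31297313-31297562, plus strand): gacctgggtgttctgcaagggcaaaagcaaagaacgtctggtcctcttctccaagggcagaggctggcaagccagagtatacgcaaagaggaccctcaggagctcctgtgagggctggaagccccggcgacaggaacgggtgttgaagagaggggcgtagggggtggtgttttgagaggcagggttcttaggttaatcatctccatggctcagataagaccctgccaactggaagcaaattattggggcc
Jakmip1 (chr5:37084986-37085235, plus strand): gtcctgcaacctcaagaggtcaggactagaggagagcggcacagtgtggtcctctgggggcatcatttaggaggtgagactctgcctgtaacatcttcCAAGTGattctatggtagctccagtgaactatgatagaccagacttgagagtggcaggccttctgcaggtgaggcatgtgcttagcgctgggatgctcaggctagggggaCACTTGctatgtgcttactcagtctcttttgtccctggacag
Cd38 (chr5:43868559-43868808, plus strand): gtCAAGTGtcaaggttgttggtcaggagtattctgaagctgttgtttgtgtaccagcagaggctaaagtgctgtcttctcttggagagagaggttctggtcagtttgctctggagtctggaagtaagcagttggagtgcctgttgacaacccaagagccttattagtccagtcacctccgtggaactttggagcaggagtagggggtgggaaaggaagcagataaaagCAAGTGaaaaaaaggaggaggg
*Crmp1* and *Gckr* had no copy in the stretch searched. *Jakmip1*, a microtubule-associated partner of GABA receptors, had copies 152 and 42 bases before its start, and *Cd38*, an ecto-enzyme that consumes NAD, had copies 248 and 22 bases before it.

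The libraries were checked first. *Hmx1* itself (chromosome 5, 35731766 to 35735521) had a log2 fold change of -0.0021, *dmbo* minus WT (standard error, SE, 0.06), and since a nonsense mutation removes no sequence this does not check the labels. Mean log2 signals per array of rod markers lay between 12.66 and 12.78 in *dmbo* and between 12.75 and 12.80 in WT retinas, so the labelled tissue carried its defining transcripts. All 6 lens markers had a higher mean in *dmbo*, with a mean signal of 8.67 to 12.68 in *dmbo* arrays and 7.30 to 9.57 in WT arrays, and none of the 6 was free of overlap between the groups. *Xist* signals, in order of replicate number, were 10.58, 12.73, 12.85 and 12.87 for *dmbo* and 6.44, 12.80, 6.65 and 6.46 for WT retinas, and 4 Y-linked genes averaged 9.90, 8.03, 5.58 and 5.97 in *dmbo* and 10.05, 5.86, 9.92 and 10.02 in WT retinas. *Dmbo* replicates 1 and 2 thus carried transcripts of both sexes and may not each be a single mouse, and sex was unevenly spread over the groups. Over the flank probe sets arrays correlated with each other at 0.991 to 0.998. With 4 arrays a group the array number sets the precision. The limma p-values set each difference against the spread between these arrays, estimated partly from all probe sets. If *dmbo* replicates 1 and 2 are not single mice, that spread may not be the one between animals.

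Few differences between *dmbo* and WT retinas were found next to *Hmx1*. Sequence variants under the probes, which could alter the signal wherever donor chromosome remained, were not checked. A gene was called changed at an adjusted p under 0.1 from limma (method of Benjamini and Hochberg over all 28350 probe sets) with at least a 1.2-fold difference. Of the 235 flank probe sets 1 passed, or 0.426%, whereas 181 passed over the whole array (0.638%) and 0 on the rest of chromosome 5 (0%). The one that passed was named for *Rpl15*, a protein of the large ribosomal subunit, and it was higher in *dmbo*. With no minimum fold it was again the only flank probe set, against 221 over the array (0.78%) and 3 on the rest of the chromosome (0.214%). After *Rpl15* the lowest adjusted p in the flanks was 0.221, for *Gckr*, and 228 of the 235 had an adjusted p above 0.5.

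Counts that do not depend on the adjustment were also below those of the array. At an unadjusted p under 0.05, 5 flank probe sets were higher in *dmbo* (2.13%) and 5 were lower (2.13%), where the whole array gave 3.87% higher and 3.78% lower. In both directions together this was 10 flank probe sets (4.26%), against 5.56% on the rest of chromosome 5 and 7.65% over the array. The 4 *dmbo* values lay entirely above or below the 4 WT values for 10 flank probe sets, 5 in each direction (4.26%), whereas this held for 3.78% on the rest of the chromosome and 5.39% over the array. For such genes the exact permutation test over the 8 arrays gives a two-sided p of 0.0286, the smallest that 70 assignments allow. By each of these rules the share in the flanks was below that of the whole array, and it was above that of the rest of the chromosome for calls and for groups without overlap. For calls, where the flank share rests on 1 or 2 probe sets, the order depended on single arrays. It was 0.851% in the flanks and 0.413% over the array without *dmbo* replicate 1, 0.851% and 0.702% without *dmbo* replicate 4, and 0.426% and 0.332% without WT replicate 3, while without *dmbo* replicate 2, WT replicate 1 or WT replicate 2 no flank probe set passed.

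The sizes of the differences were small and lay around 0. The median log2 fold change was 0.0082 over the flanks, 0.0052 over the rest of chromosome 5 and 0.0056 over the array, with 137 flank probe sets higher and 98 lower in *dmbo*. The median absolute log2 fold change was 0.037 in the flanks, 0.041 on the rest of the chromosome and 0.046 over the array. For 203 of the 235 probe sets (86.4%) the 95% confidence interval lay wholly within 1.2-fold in either direction, against 83.3% on the rest of the chromosome and 78.1% over the array. It lay within 1.5-fold for 233, the exceptions being *Htra3* and *Fgfr3*. The median standard error in the flanks was 0.055 on the log2 scale. A measured difference under 1.2-fold could not be called by rule. With this error, one of 1.2-fold or somewhat more could also go uncalled for a single gene. The median SD between arrays was 0.080 in *dmbo* and 0.062 in WT retinas, and the *dmbo* SD was the larger for 138 of the 235 probe sets (58.7%), much as over the array (61.1%).

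**Figure D1:**
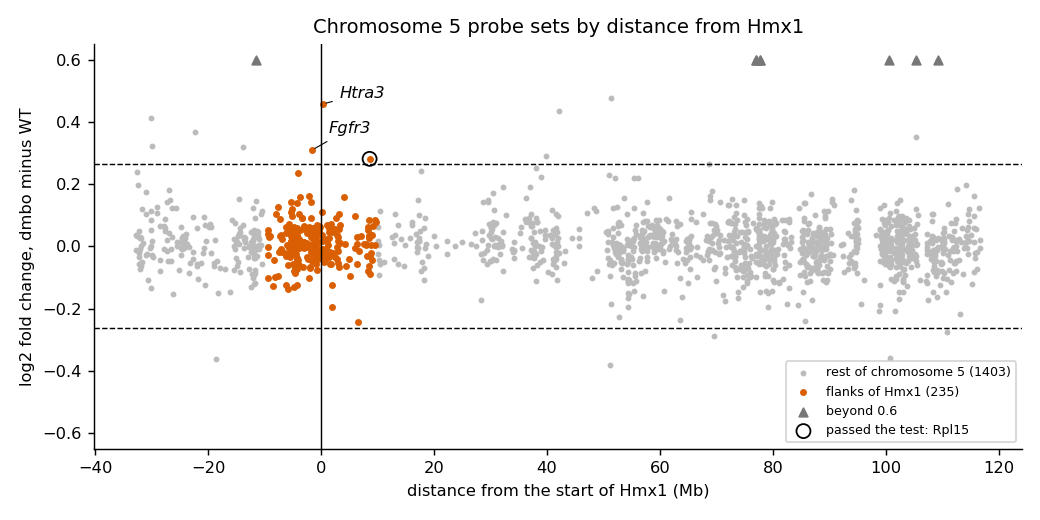
Log2 fold change of *dmbo* minus WT for each probe set of chromosome 5 against its distance from the start of *Hmx1* in Mb, with the 235 flank probe sets in orange and the rest of the chromosome in grey. Dashed lines mark a 1.2-fold difference and triangles mark values beyond 0.6. In the flanks 3 probe sets reached 1.2-fold, *Htra3*, *Fgfr3* and the circled *Rpl15*, and apart from *Htra3* the points within 1 Mb of *Hmx1* lay between -0.07 and 0.11.

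Differences did not gather near *Hmx1*. Within 1 Mb of its start lay 26 probe sets with 24 symbols, of which 13 were higher and 13 lower in *dmbo*. None of them had an unadjusted p under 0.05, the lowest adjusted p from limma was 0.837, and the median absolute log2 fold change was 0.037. Between 1 and 2 Mb it was 0.043 over 36 probe sets, between 2 and 5 Mb 0.035 over 93, and between 5 and 10 Mb 0.041 over 80. The number with an unadjusted p under 0.05 was 0, 2, 4 and 4 over these bands in the same order, and the only call lay in the outermost. In steps of 1 Mb along the flanks, 8 of 20 steps held a probe set with an unadjusted p under 0.05 and none held more than 2. The median log2 fold change was 0.0092 on the side of lower coordinates and 0.0081 on the other, and an unadjusted p under 0.05 was found for 3.25% of the 154 probe sets on the lower side and 6.17% of the 81 on the higher side, that is 5 on each. The difference between the sides was not tested.

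The signals of the genes that adjoin *Hmx1* were measured well enough to bound most of their differences. No low-signal filter was used, and whether the dim ones, such as *E130018O15Rik* and *Adra2c*, lay above background was not tested. For a signal near background the interval does not bound a difference in RNA. On the lower side, *E130018O15Rik* ends just before *Hmx1* and had signals of 7.14, 7.24, 7.07 and 7.33 in *dmbo* and 7.24, 7.13, 7.19 and 7.26 in WT retinas. The groups overlapped throughout, and the log2 fold change was -0.01 (95% confidence interval, CI, -0.15 to 0.13). *Adra2c*, an adrenergic receptor, had a log2 fold change of 0.06 (-0.14 to 0.26), and *Lrpap1*, the chaperone of receptors of the LDL receptor family, one of 0.07 (-0.03 to 0.16). On the higher side, *Cpz*, a carboxypeptidase of the extracellular matrix, had 8.16, 8.12, 8.06 and 8.46 in *dmbo* and 7.99, 7.99, 8.23 and 8.15 in WT retinas, with *dmbo* replicate 4 the highest and the groups overlapping. Its log2 fold change was 0.11 (-0.10 to 0.32), and without *dmbo* replicate 4 it was 0.02. *2310079F23Rik*, which RefSeq lists as the tRNA methyltransferase gene *Trmt44*, had a log2 fold change of 0.02 (-0.11 to 0.15), and *Acox3*, an oxidase of branched fatty acids in peroxisomes, one of 0.02 (-0.08 to 0.11). For 23 of the 26 probe sets the interval lay within 1.2-fold, and the exceptions were *Cpz*, *Htra3* and the dimmer of 2 probe sets of *Acox3*. The dimmer *Acox3* probe set lies on the opposite strand to the brighter and may not measure the same transcript.

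**Figure D2:**
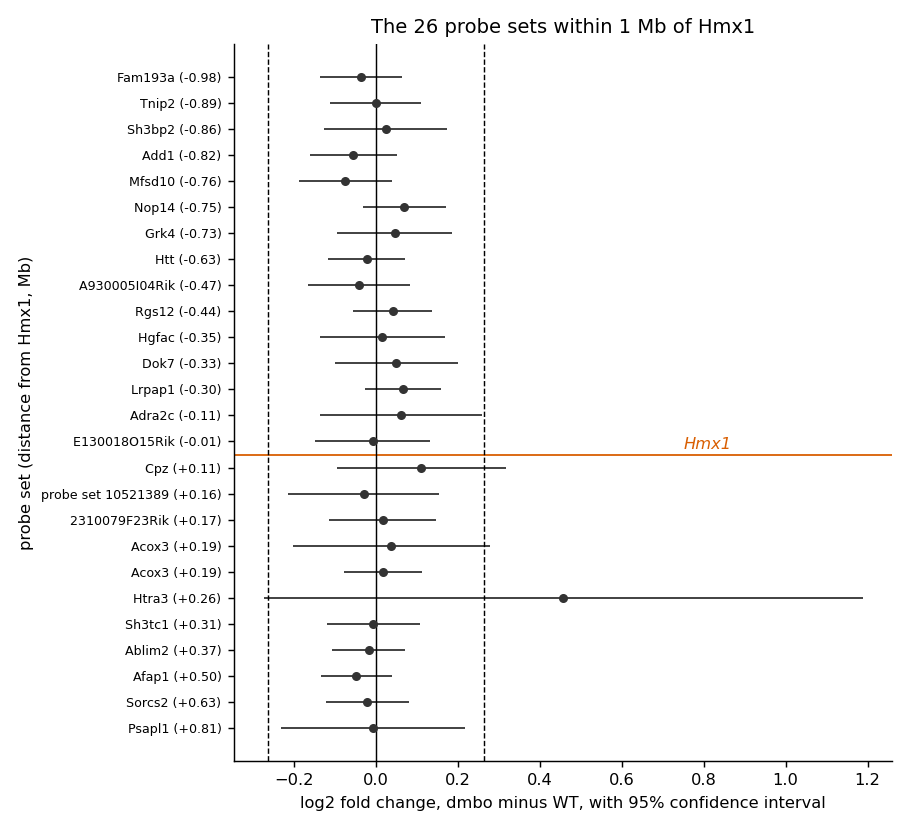
Log2 fold change of *dmbo* minus WT with its 95% confidence interval for the 26 probe sets within 1 Mb of *Hmx1*, in order of position from top to bottom, with the distance in Mb in brackets. Dashed lines mark 1.2-fold in either direction. Every interval includes 0, and that of *Htra3* runs from -0.27 to 1.19.

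*Rpl15* was the only flank probe set that passed the test, 8.6 Mb from *Hmx1* (chromosome 5, 44335141 to 44335722, minus strand). Its signals were 11.61, 11.67, 11.69 and 11.68 in *dmbo* and 11.38, 11.32, 11.40 and 11.42 in WT retinas. All *dmbo* values lay above all WT values. The log2 fold change was 0.28 (SE 0.04, limma adjusted p = 0.0267). The call ended without *dmbo* replicate 2 (adjusted p = 0.113), without WT replicate 1 (0.106) and without WT replicate 2 (0.107), while the log2 fold change stayed between 0.26 and 0.30 with any array left out. With *Xist* as a covariate, a setting added with the data in view, the log2 fold change was 0.31 and the adjusted p from limma 0.359. This covariate is partly confounded with genotype, since sex was unevenly spread over the groups. Without *dmbo* replicates 1 and 2 the log2 fold change and adjusted p from limma were 0.31 and 0.267.

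The probe set does not measure a gene of chromosome 5 alone. RefSeq places *Rpl15* on chromosome 14, and the array's annotation marks the probe set as cross-hybridizing, that is, its probes also match other transcripts. The array carried 8 probe sets named *Rpl15*, on 8 chromosomes, and all 8 are marked so. In each of them the 4 *dmbo* values lay above the 4 WT values, with log2 fold changes between 0.23 and 0.35, adjusted p-values between 0.00992 and 0.08 from limma and 4 calls. The probe sets share probe matches, so they are not 8 independent measurements. Among the 218 flank probe sets that the annotation marks as matching a single sequence, 0 passed and 9 had an unadjusted p under 0.05 (4.13%). When single-sequence probe sets were fitted alone, 0.547% of all 25232 passed and 7.32% had an unadjusted p under 0.05.

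**Figure D3:**
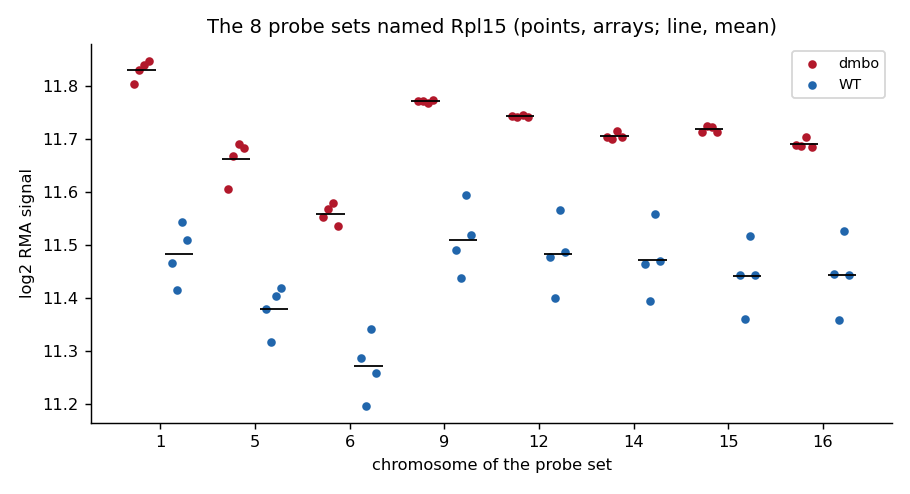
Log2 signal of each array for the 8 probe sets named *Rpl15*, by the chromosome the table gives, with *dmbo* arrays (red) left of WT arrays (blue) and a line at each mean. Every *dmbo* point lies above every WT point of the same probe set, on chromosome 5 as on the other 7 chromosomes.

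A further 9 flank probe sets carry the symbol of a gene that RefSeq places on another chromosome, namely *Cir1*, *Dnaja1*, *Gapdh*, *Ino80*, *Pdlim1*, *Ppih*, *Rab2a*, *Rpl7* and *Rps29*, and all but that of *Rab2a* are marked as cross-hybridizing. None passed. The glycolytic enzyme *Gapdh* was the brightest name in the flanks, at 13.37 in *dmbo* and 13.38 in WT retinas, and its 34 other probe sets had log2 fold changes between -0.04 and 0.0004. *Rpl7*, another ribosomal protein, had a log2 fold change of 0.10 in the flanks (limma adjusted p = 0.779) and 0.09 to 0.11 in its 3 other probe sets.

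Besides *Rpl15*, 4 genes had all *dmbo* values above all WT values, and none of them passed the test after adjustment. *Gckr*, the regulatory protein of glucokinase, had 9.87, 9.96, 9.82 and 9.68 in *dmbo* and 9.62, 9.60, 9.64 and 9.54 in WT retinas. *Dmbo* replicate 4 came closest to the WT values. The log2 fold change was 0.23 (SE 0.06, limma adjusted p = 0.221). Without *dmbo* replicate 4 it was 0.28 and passed (adjusted p = 0.0615), and it also passed when arrays were weighted by their quality (0.28, adjusted p = 0.0307). *Rbks*, the kinase of ribose, had 8.62, 8.68, 8.61 and 8.73 in *dmbo* and 8.57, 8.57, 8.45 and 8.41 in WT retinas, a log2 fold change of 0.16 (adjusted p = 0.409). *Htr5a*, a serotonin receptor, had 7.99, 8.03, 7.90 and 7.92 in *dmbo* and 7.82, 7.77, 7.86 and 7.87 in WT retinas, a log2 fold change of 0.13 (adjusted p = 0.528). For *Zfp513*, a zinc finger gene whose human counterpart is mutated in a form of retinitis pigmentosa, the groups stood apart by very little, with a log2 fold change of 0.02 (adjusted p = 0.982). *Zfp513*, *Gckr* and *Rbks* lie close together, with starts at -4.23, -4.13 and -3.81 Mb relative to *Hmx1*.

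The 5 genes with all *dmbo* values below all WT values included 2 of the 5 collapsin response mediators. *Crmp1* (37633319 to 37683372) had 10.38, 10.40, 10.45 and 10.32 in *dmbo* and 10.63, 10.64, 10.59 and 10.47 in WT retinas. WT replicate 4 was the lowest of its group and still lay above the highest *dmbo* array. Its log2 fold change was -0.19 (SE 0.05, 95% CI -0.31 to -0.08, limma adjusted p = 0.235). *Dpysl5* (31013937 to 31101742), which encodes a related protein of growing axons, had 9.76, 9.78, 9.80 and 9.72 in *dmbo* and 9.91, 9.95, 9.85 and 9.86 in WT retinas, a log2 fold change of -0.13 (adjusted p = 0.398). *Dpp6* had 10.12, 10.20, 10.17 and 10.06 in *dmbo* and 10.27, 10.28, 10.26 and 10.23 in WT retinas, a log2 fold change of -0.13 (adjusted p = 0.460). In whole retina a lower signal from fewer cells of a type and from less RNA per cell cannot be told apart. Marker means of 2 retinal cell types also stood apart between the groups, but their genes did not all move one way. The mean of 5 amacrine markers lay between 10.17 and 10.30 in *dmbo* and between 10.35 and 10.43 in WT arrays. Of the 5 genes 4 were lower in *dmbo*, and *Slc6a9* alone was called. Without overlap, *Slc6a9* (log2 fold change -0.38) and *Slc32a1* (-0.16) were lower and *Pax6* (0.07) was higher. The paper reports *Slc6a9* as a target of *Hmx1*. Whether the amacrine mean stood apart without *Slc6a9* was not tested. The mean of 4 Müller glia markers lay between 11.29 and 11.42 in *dmbo* and between 11.20 and 11.26 in WT arrays. Of the 4 genes 3 were higher in *dmbo*, and *Aqp4* alone was called. Without overlap, *Aqp4* (log2 fold change 0.30) and *Slc1a3* (0.26) were higher and *Rlbp1* (-0.10) was lower. *Slc1a3* had an adjusted p of 0.0545 from limma and stayed just under 1.2-fold. The part of these cell types in the values of *Crmp1*, *Dpysl5* and *Dpp6* was not tested. *Evc*, part of a complex that passes Hedgehog signals at the cilium base, differed by -0.13 on the log2 scale (adjusted p = 0.634), and *Ctbp1*, a transcriptional corepressor, by -0.10 (adjusted p = 0.665).

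**Figure D4:**
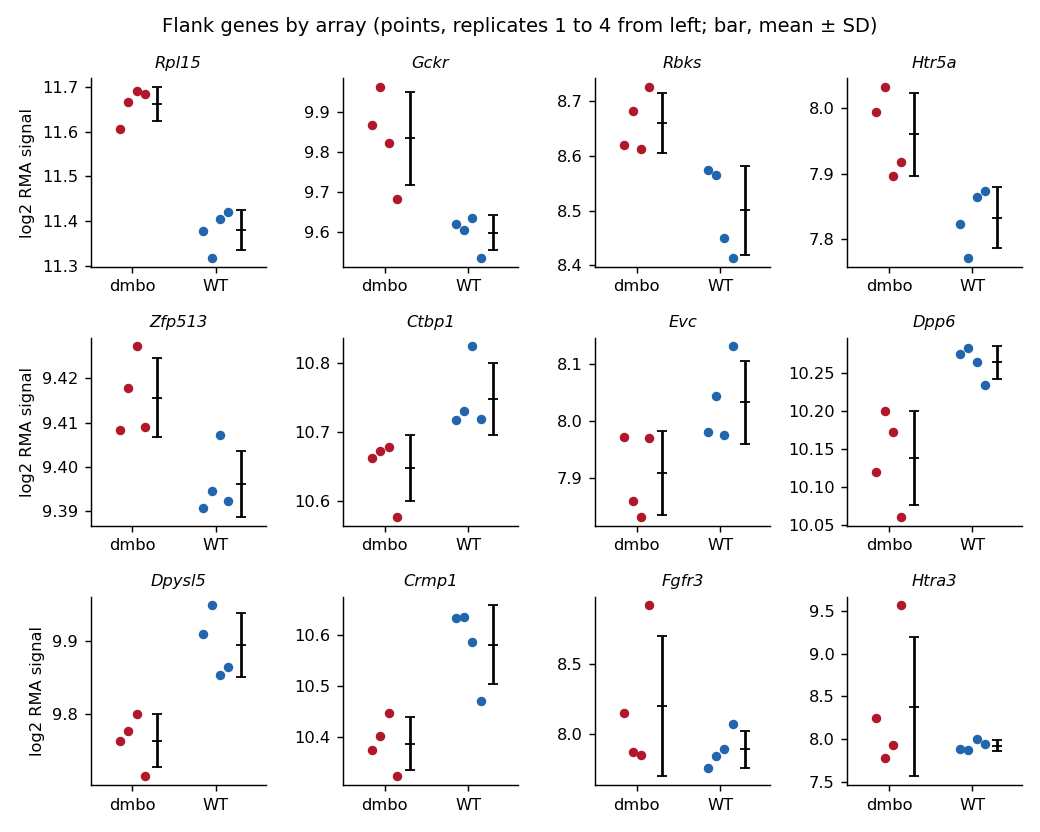
Log2 RMA signal of each array (points, replicates 1 to 4 from the left) with the mean ± SD of each group, *dmbo* in red and WT in blue, for 12 flank genes, each panel on its own axis. In the first 10 panels the groups do not overlap, with differences that range from 0.02 for *Zfp513* to 0.28 for *Rpl15*, whereas in *Fgfr3* and *Htra3* a single *dmbo* array stands above all others.

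Probe sets without a symbol gave 2 further unadjusted p-values under 0.05. Probe set 10529792, a predicted transcript, had 7.65, 7.37, 7.37 and 7.38 in *dmbo* and 7.72, 7.68, 7.61 and 7.73 in WT retinas, with *dmbo* replicate 1 inside the WT range and the others below it. Its log2 fold change was -0.24 (limma adjusted p = 0.276), and among the settings run it passed only without *dmbo* replicate 1. Probe set 10529730 differed by 0.16 on the log2 scale (adjusted p = 0.604), and its groups overlapped. Both were singled out after their values were seen.

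The flank genes with the largest differences of means rested on 1 array. They were also singled out after their values were seen. *Htra3*, a secreted serine protease 0.26 Mb from *Hmx1*, had 8.25, 7.77, 7.92 and 9.57 in *dmbo* and 7.88, 7.87, 8.0 and 7.94 in WT retinas. *Dmbo* replicate 4 was far above the other arrays, and *dmbo* replicates 2 and 3 lay at WT level. The mean difference was 0.46 on the log2 scale (SE 0.33, limma adjusted p = 0.877), and without *dmbo* replicate 4 it was 0.06. *Fgfr3*, a receptor of fibroblast growth factors, had 8.15, 7.87, 7.85 and 8.92 in *dmbo* and 7.75, 7.84, 7.89 and 8.07 in WT retinas, a log2 fold change of 0.31 (adjusted p = 0.865), which was 0.07 without *dmbo* replicate 4. The order of the 4 *dmbo* arrays for *Htra3* and *Fgfr3* put replicates 4 and 1 at the top, as did the lens markers, whose mean signals in *dmbo* were 11.94, 10.79, 8.67 and 12.68 in order of replicate number. With the lens mean as a covariate, a setting added with the data in view and partly confounded with genotype, the log2 fold change was -0.29 for *Htra3* and -0.28 for *Fgfr3*, and neither passed. Whether lens RNA had a part in these values was not tested.

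Genes listed for photoreceptors, cilia and eye disease showed no difference that passed. Of 8 such genes 2 were higher and 6 lower in *dmbo*, with a median log2 fold change of -0.05 against 0.0056 over all probe sets, 1 had an unadjusted p under 0.05 (*Evc*), and all 8 intervals lay within 1.2-fold. *Prom1*, the brightest of them, had 12.15, 12.14, 12.12 and 12.01 in *dmbo* and 12.20, 12.11, 12.14 and 12.10 in WT retinas. These overlapped, and the log2 fold change was -0.03 (-0.14 to 0.07). *Cc2d2a*, a protein of the ciliary transition zone, had 10.56, 10.68, 10.69 and 10.61 in *dmbo* and 10.75, 10.74, 10.72 and 10.63 in WT retinas, a log2 fold change of -0.08 (limma adjusted p = 0.833). *Rab28*, a small GTPase whose loss causes cone-rod dystrophy in people, had a log2 fold change of -0.06, *Wfs1*, the Wolfram syndrome gene, one of -0.06, and *Ift172*, a subunit of the intraflagellar transport machinery, one of -0.04. *Evc2*, the partner of *Evc*, had a log2 fold change of 0.05, of the other sign.

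None of the transcription regulators of the flanks passed. Of 19 listed, 0 had an unadjusted p under 0.05, 13 were higher and 6 lower in *dmbo*, and the median log2 fold change was 0.03. The homeobox genes had low signals, with *En2* at 7.12 in *dmbo* and 7.03 in WT retinas on average, and log2 fold changes of 0.09 for *En2*, 0.06 for *Mnx1*, 0.05 for *Msx1* and 0.03 for *Nkx3-2*. *Ctbp1* was the brightest at 10.65 in *dmbo* and 10.75 in WT retinas. *Paxip1*, a subunit of histone methyltransferase complexes, had 9.41, 9.40, 9.45 and 9.31 in *dmbo* and 9.53, 9.52, 9.44 and 9.46 in WT retinas, with 1 *dmbo* array inside the WT range, and a log2 fold change of -0.09 (limma adjusted p = 0.714).

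Of 12 genes listed for Hedgehog and FGF signalling 11 were measured in the flanks, 6 higher and 5 lower in *dmbo*, and 0 passed. *Shh*, the ligand itself, had 9.05, 9.01, 8.94 and 9.02 in *dmbo* and 8.97, 9.0, 8.95 and 9.02 in WT retinas. The values overlapped almost wholly, and the log2 fold change was 0.02 (-0.07 to 0.12). *Spon2*, a secreted matrix protein, had 8.0, 8.09, 8.04 and 8.37 in *dmbo* and 7.88, 7.96, 7.96 and 8.05 in WT retinas, a log2 fold change of 0.16 (limma adjusted p = 0.722), which was 0.08 without *dmbo* replicate 4.

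The list of neuronal receptors, channels and synaptic genes had 26 of 27 members in the flanks, 14 higher and 12 lower, with a median log2 fold change of 0.01. Its 3 members with an unadjusted p under 0.05, a count to be read against 7.65% of all probe sets, were *Htr5a*, higher in *dmbo*, and *Crmp1* and *Dpp6*, lower. *Dpysl5*, related to *Crmp1* and also lower with an unadjusted p under 0.05, was not on the list. *Mapre3*, a microtubule plus-end protein and the brightest member, had 11.52, 11.50, 11.50 and 11.46 in *dmbo* and 11.64, 11.59, 11.53 and 11.50 in WT retinas, a log2 fold change of -0.07 (limma adjusted p = 0.839). *Htt* had 10.24, 10.27, 10.29 and 10.23 in *dmbo* and 10.30, 10.34, 10.26 and 10.22 in WT retinas, with a log2 fold change of -0.02.

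Of the lists, those of metabolism and of general cell functions stood closest to 0. Of the 20 metabolic genes measured of 24 listed, 13 were higher and 7 lower, and *Gckr* alone had an unadjusted p under 0.05. The enzyme gene *Rbks*, higher in *dmbo* by 0.16 on the log2 scale and also with an unadjusted p under 0.05, was not on the list. *Hadha*, a subunit of the mitochondrial enzyme of fatty acid oxidation and the brightest of them, had 10.74, 10.70, 10.74 and 10.63 in *dmbo* and 10.62, 10.68, 10.70 and 10.66 in WT retinas, a log2 fold change of 0.03. *Agbl5*, an enzyme that removes glutamate side chains from tubulin, had a log2 fold change of -0.09 (limma adjusted p = 0.844). Of 23 chaperone, cytoskeleton and housekeeping genes measured of 25 listed, 12 were higher and 11 lower, with a median log2 fold change of 0.0004. *Ppp1cb*, a catalytic subunit of protein phosphatase and the brightest of these, had 11.58, 11.66, 11.67 and 11.53 in *dmbo* and 11.60, 11.61, 11.65 and 11.57 in WT retinas, and the 2 groups overlapped throughout. *Slbp*, which binds histone transcripts, was 0.09 higher in *dmbo* on the log2 scale (adjusted p = 0.842), and *Nop14*, a factor of ribosome assembly, 0.07 higher (adjusted p = 0.858).

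Several genes were covered by more than 1 probe set, which shows how far single values can be relied on. *Plb1*, a phospholipase, had 7 probe sets with log2 fold changes between -0.01 and 0.06. The 2 probe sets of *Lmbr1*, the gene that harbours the limb enhancer of *Shh*, differed in sign, at -0.12 and 0.04. Those of *Dpp6* gave -0.13 for the brighter and -0.04 for the dimmer, and only the brighter had an unadjusted p under 0.05. The signals of the 2 *Slbp* probe sets were both higher in *dmbo*, by 0.09 and 0.14. The one with 0.14 lies on the opposite strand, beyond the end of the other, and may not measure the same transcript.

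The CAAGTG letters were carried by 14 of the 150 flank genes with a promoter (9.33%) and by 4150 of 27025 genes in the whole promoter table (15.4%). Of the 14, 8 were higher and 6 lower in *dmbo*, 0 had an unadjusted p under 0.05, the lowest adjusted p from limma was 0.767, and the median absolute log2 fold change was 0.052, against 0.036 for the 136 without the letters. There were 2 of 150 genes with 2 copies in the flanks (1.33%) and 380 (1.41%) in the table, and neither of the 2 passed. *Jakmip1* had 8.66, 8.61, 8.52 and 8.66 in *dmbo* and 8.48, 8.54, 8.49 and 8.64 in WT retinas, a log2 fold change of 0.07 (limma adjusted p = 0.891). *Cd38* had 7.75, 7.67, 7.65 and 7.63 in *dmbo* and 7.63, 7.76, 7.84 and 7.72 in WT retinas, a log2 fold change of -0.06 (adjusted p = 0.922). In both genes the groups overlapped, and 80% of the flank probe sets had a smaller absolute difference than *Jakmip1* and 72.8% a smaller one than *Cd38*.

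Set along the whole of chromosome 5, the flanks did not stand apart from other windows. In consecutive windows of up to 20 Mb, between 4.03% and 9.09% of probe sets had an unadjusted p under 0.05, and the flanks had 4.26%. Chromosome 5 as a whole ranked second lowest of the 19 autosomes by this share. The rest of the chromosome held 3 genes with a limma adjusted p under 0.1, *Sel1l3* (log2 fold change 0.24), *Rabl5* (-0.21) and *Rph3a* (-0.24), all under 1.2-fold and all at least 17.77 Mb from *Hmx1*. *Pde6b*, the gene of the *Rd1* mutation that was bred out of the line, also lies on this chromosome, outside the flanks, from 108817392 to 108861416. It had 12.77, 12.77, 12.79 and 12.67 in *dmbo* and 12.76, 12.77, 12.79 and 12.75 in WT retinas, with a log2 fold change of -0.02 (-0.11 to 0.08), and the groups overlapped.

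A stretch of chromosome 14 between 48 and 66 Mb was set beside the flanks. It was picked with its differences known, so its values are a description. Of its 424 probe sets 15 passed (3.54%), 6 higher and 9 lower in *dmbo*, and 11.6% had an unadjusted p under 0.05, whereas in the flanks these shares were 0.426% and 4.26%. The 95th percentile of the absolute log2 fold change was 0.14 in the flanks, 0.15 on the rest of chromosome 5, 0.28 in the chromosome 14 stretch and 0.19 over the array.

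**Figure D5:**
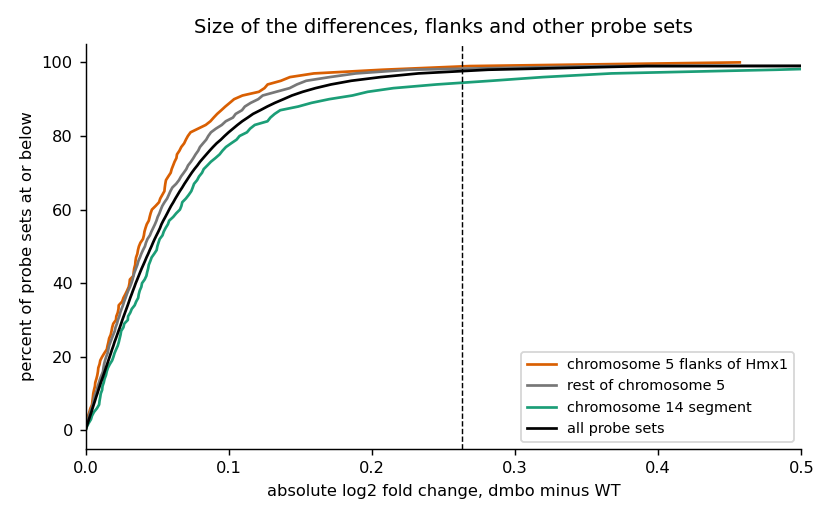
Percent of probe sets (vertical) whose absolute log2 fold change of *dmbo* minus WT is at or below the value on the horizontal axis, for the flanks, the rest of chromosome 5, the chromosome 14 stretch and all probe sets. The dashed line marks 1.2-fold. The curve of the flanks (orange) lies to the left of the others over most of its course, with a median of 0.037 against 0.046 for all probe sets.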

How the data were processed

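Affymetrix Mouse Gene 1.0 ST arrays, 8 in all, measured retinas of 4 *dmbo* and 4 WT mice. The authors extracted the scans with Affymetrix Power Tools, computed RMA signals (background correction, quantile normalization and summary of the probes) and deposited them as log2 values; their statistics used R 2.12.1 and limma 3.6.9. The deposited series table and the annotated table held identical values for all 28350 probe sets. The annotated table also holds the authors' own fold change, p-value and FDR columns, which were not used. Its build is not stated, but descriptions of 2955 predicted transcripts name NCBIM37, and 1781 of these share a start or end with their probe set. Promoters are RefSeq's, of build GRCm38.p6, and no coordinate was converted.

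A linear model, *dmbo* minus WT, was fitted to every probe set with limma 3.58.1 in R 4.3.3 with empirical Bayes variances, and checked on simulated data. Samples were grouped by the genotype in their labels. A call needed an adjusted p under 0.1, by the method of Benjamini and Hochberg, and at least 1.2-fold. Confidence intervals are at 95%. No low-signal filter was used.

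The members, the gene lists and the tests were chosen with earlier results of these data known. Genes were named where a flank probe set had an adjusted p under 0.1, for the 6 largest rises and 6 largest falls without overlap, for the 3 nearest symbols on each side of *Hmx1*, and in each list for the 2 lowest p and the brightest member. A gene is its brightest probe set. Other genes named were chosen after their values were seen or to describe a list. Alternatives were median centring, cyclic loess, a trended and robust prior, array weights, a replicate block, leaving out dim or unnamed probe sets, each array left out, other thresholds and narrower flanks. Single-sequence probe sets, lens and *Xist* covariates and the removal of *dmbo* replicates 1 and 2 were added after the data were seen. The number of arrays limits the precision.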

Additional observations from a re-analysis of the deposited data

Results flagged for a closer look

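Among the named flank genes, 52 groups of 4 arrays were examined for an array far from the others of its group, and 3 were found, about as many as chance gives, since about 1 in 20 groups would be marked. *Agbl5* in *dmbo* replicate 2 had a log2 signal of 9.08, and the other *dmbo* arrays lay between 9.15 and 9.16. *Ctbp1* in *dmbo* replicate 4 had 10.58, against 10.66 to 10.68 in the other *dmbo* arrays. *Ctbp1* in WT replicate 3 had 10.82, against 10.72 to 10.73 in the other WT arrays. No cause was tested.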

How the results depend on the processing

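The count of 1 called flank probe set was 2 with array weights, 6 with the lens covariate, 0 with the *Xist* covariate, 0 without *dmbo* replicates 1 and 2, 0 among single-sequence probe sets, 0 at a minimum of 1.5-fold, 0 at an adjusted p under 0.01, 0 with 5 Mb and 0 with 2 Mb on each side, and 0 to 2 with each array left out. With the lens covariate, which is partly confounded with genotype, the 6 were *Rpl15*, *Fgfbp1*, *Speer4a*, *Gm1043*, *Cpeb2* and the dimmer probe set of *Acox3*, 923 passed over the array, and the share of flank probe sets at an unadjusted p under 0.05 was 20.9%, against 22.2% over the array. On the rest of chromosome 5, 0 calls became 3 with array weights, 22 with the lens covariate, 1 with median centring, 2 among probe sets above the median signal, 2 with a trended and robust prior, 1 without *dmbo* replicates 1 and 2, 3 with no minimum fold, and 0 to 1 with each array left out. Within 1 Mb of *Hmx1* the count was 1 with the lens covariate and 0 in every other setting run. The median log2 fold change of the flanks, 0.0082, changed sign with the lens covariate (-0.021) and with median centring (-0.0020). Over the array, the 181 calls became 87 to 199 with each array left out, 344 with array weights, 30 with the *Xist* covariate and 63 without *dmbo* replicates 1 and 2. The *Xist* covariate, too, is partly confounded with genotype. The replicate number as a block gave 1 call in the flanks, 1 on the rest of chromosome 5 and 144 over the array. The numbers do not pair the samples, since the deviations of same-numbered samples correlated at -0.03, -0.02, 0.03 and 0.43.

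Differences near 0 changed sign in some settings. Those of *Ppp1cb* were 0.0042 with array weights, 0.0068 with cyclic loess, 0.086 with the lens covariate and -0.020 to 0.028 with each array left out. *E130018O15Rik* had 0.036 with the *Xist* covariate and -0.055 to 0.032 with each array left out, and *Prom1* had 0.0065 and 0.024 with the *Xist* and lens covariates and -0.048 to 0.00059 with each array left out. *Adra2c* had -0.20 with the lens covariate and -0.011 to 0.12 with each array left out, *2310079F23Rik* -0.029 to 0.048, *Cpz* -0.12 and *Cc2d2a* 0.021 with the lens covariate, and *Acox3* -0.029 with the *Xist* covariate. The cause was not tested. Of the other values of named genes, 587 kept their direction and side of the threshold, 2 of *Gckr* passed and 7 of *Rpl15* no longer passed. Under cyclic loess, among probe sets above the median signal and with a trended and robust prior, *Gckr* and *Crmp1* had an adjusted p under 0.1 from limma but stayed under 1.2-fold, as *Crmp1* did with array weights.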

Other observations

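The collapsin response mediators did not move one way. The family was singled out after the values of *Crmp1* and *Dpysl5* were seen. Outside the flanks *Dpysl3*, on chromosome 18, had a mean log2 signal of 11.64 ± 0.03 in *dmbo* and 11.44 ± 0.03 in WT retinas (SD, n = 4 each), a log2 fold change of 0.20 (limma adjusted p = 0.0770), which is under 1.2-fold. *Dpysl2* had a log2 fold change of -0.04 and *Dpysl4* one of 0.03. *Crmp1*, in the flanks, averaged 10.39 ± 0.05 in *dmbo* and 10.58 ± 0.08 in WT retinas, and *Dpysl5* averaged 9.76 ± 0.04 in *dmbo* and 9.89 ± 0.04 in WT retinas.

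The 406 probe sets named for a protein of the cytosolic ribosome had a median log2 fold change of 0.02, against 0.0056 over all probe sets, with 291 higher in *dmbo* (71.7%, against 53.3% of all), and 5 passed (1.23%, against 0.638% of all), of which 4 were those of *Rpl15* and 1 was that of *Rps3a*. Many of these probe sets match several transcripts, so they are not independent.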
